A study of Homo sapiens with 9 samples.

Results

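The comparison described here set a colorectal cancer cell line to which the tumour suppressor gene APC had been returned against the line it was made from. It used 6 of the 9 RNA sequencing libraries of the series, chosen by their labels: 3 of SW480+APC and 3 of parental SW480. SW480 is a human line of epithelial colon cancer cells that the submitters describe as defective for APC. The group called APC below is the clone D2.15, which carries pEF-mycAPC, a vector with a myc-tagged APC gene, and was kept in G418 at 1.5 mg/ml. The group called SW480 is the parental line, grown in the same supplemented RPMI medium without G418. The remaining 3 libraries, called CONTROL, come from the clone R38.7, which carries the empty pEF vector and was kept in G418 at 1.5 mg/ml. They entered the fit for the estimate of the spread, and their values are given where they bear on a result. Plates were set up in triplicate, with fewer cells for APC than for SW480 and CONTROL, in a ratio of 2 to 3.35, and RNA was taken after 72 h. Each derived line is 1 clone and the replicates are parallel plates, so a p-value here reflects differences among plates alone. The clone, the cell number at plating and, against SW480, the G418 cannot be told apart from the APC construct in this comparison.

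APC is a scaffold of the cytoplasmic complex that holds beta-catenin for phosphorylation and destruction. Without it beta-catenin builds up, enters the nucleus and, with TCF/LEF factors, switches on genes such as AXIN2, which feed back on the pathway. APC also binds microtubules and actin regulators, and its loss is the usual first step of colorectal tumours.

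Levels are CPM, counts scaled for library size and composition. Changes are log2 fold changes of APC over SW480 with a standard error (SE) derived from the test statistic. A gene is said to have risen or fallen when its adjusted p from edgeR's quasi-likelihood test was under 0.05. Total counts over genes lay between 17211154 and 18491724 in these 6 libraries, and 3 counts corresponded to 0.162 to 0.174 CPM. Libraries of one line correlated at 0.9967 or higher across genes, and APC with SW480 libraries at 0.9202 to 0.9248, where genes are not independent replicates. The introduced gene checked the labels: APC transcript stood at 46.6, 49.6 and 51.5 CPM in the SW480 libraries and at 149.6, 146 and 139.7 CPM in the APC libraries. The counts do not separate the construct from the cells' own gene. Of the colon epithelium markers, 7 of 14 were tested, 4 rose and 3 fell; KRT8 and KRT18, simple epithelial keratins, were abundant in both lines, with KRT8 at 2585 and 2971 CPM and KRT18 at 2306 and 2160.2 CPM in SW480 and APC, whereas 7 markers were too low to test. Of 14 leukocyte and blood markers 6 were tested, with 3 higher and 2 lower, and their summed level was 17.8 to 19.8 CPM in SW480 and 38.4 to 40.8 CPM in APC. The 3 higher and 2 lower markers all passed 2-fold, and the log2 fold changes of the 6 tested ran from −3.19 to 6.26. CD3E, a T cell gene picked after its values were seen, stayed at 2 counts or fewer per library. Of 10 fibroblast and 9 endothelial or neural markers, 3 and 3 were tested, with 0 higher and 2 lower in the former and 0 higher and 2 lower in the latter. Their summed levels were 42.7 to 46.9 and 120 to 134 CPM in SW480 and 17.1 to 17.9 and 26.9 to 31.6 CPM in APC. Whether other cells contributed to any result was not tested.

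The change between the lines was broad. Of 14253 genes tested, 35.6% rose and 36.9% fell in APC, and 7.91% rose and 11.1% fell by more than 2-fold. These shares are the background against which each group of genes below is read, together with a median log2 fold change of −0.01 over all genes. Log2 fold changes beyond 3 were measured for 316 genes that rose and 338 that fell, and changes beyond 5 for 103 and 87. The genes that fell by more than 2-fold held 7.15% of all CPM in SW480 and 2.01% in APC. Those that rose by more than 2-fold held 1.54% in SW480 and 5.19% in APC. In 73.1% of genes tested, the 3 APC libraries did not overlap the 3 SW480 libraries. CONTROL, set against the same SW480 libraries, differed in 50% of genes, and APC differed from CONTROL in 70.2%. These comparisons share libraries, so they are not independent of each other.

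**Figure D1:**
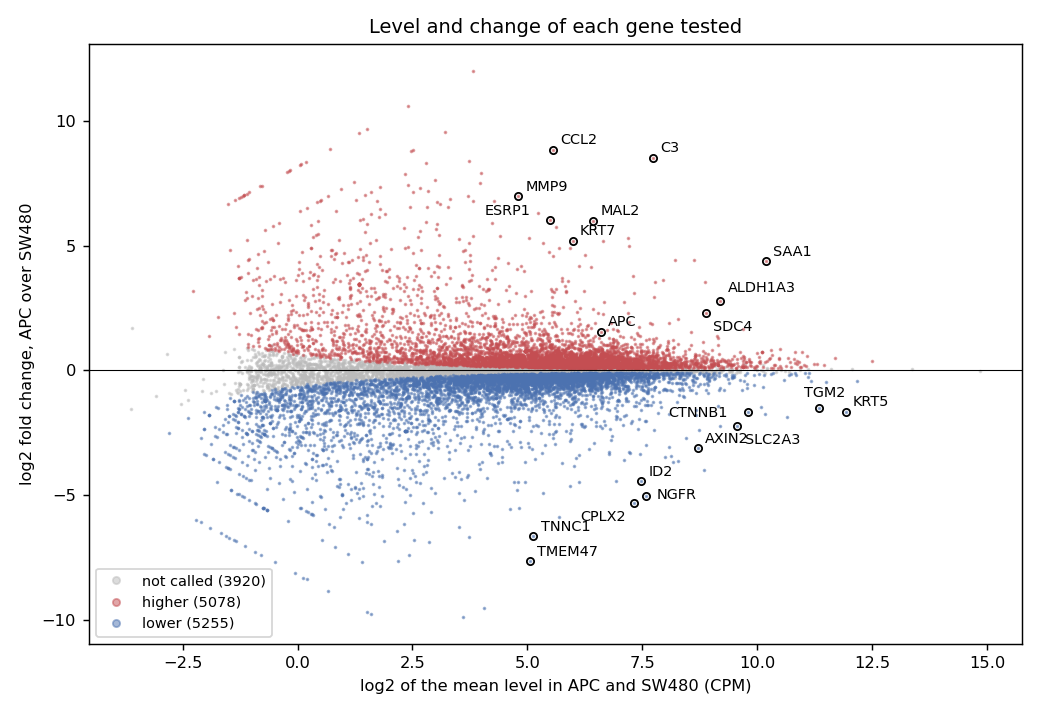
Each point is 1 of 14253 genes tested, with the log2 of its mean level in APC and SW480 (CPM) on the horizontal axis and its log2 fold change of APC over SW480 on the vertical axis; red points rose, blue points fell and grey points were not called. Labelled genes show that changes of more than 30-fold occurred in both directions among well-expressed genes, such as C3 above and NGFR below, while the most abundant labelled gene, KRT5, lay at −1.66.

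By the amount of transcript lost, the leading genes that fell were those of an abundant keratin, a crosslinking enzyme and nutrient transporters. KRT5, a keratin of basal epithelial layers, was measured at 5970.0, 5832 and 5877 CPM in SW480 against 1809, 1862 and 1941 CPM in APC (log2 fold change −1.66 ± 0.04, edgeR adjusted p = 1.2e-27). TGM2, which encodes the protein-crosslinking enzyme transglutaminase 2, stood at 3938, 3640.2 and 3875 CPM in SW480 against 1375, 1332 and 1305 CPM in APC (log2 fold change −1.51 ± 0.04, edgeR adjusted p = 1.6e-26). CONTROL lay between the lines for both genes, at 3724 ± 77.3 CPM for KRT5 and 2667 ± 45.4 CPM for TGM2 (mean ± SD, n = 3, as for all such values below). KRT5 lies between SMAGP and HOXC9 on chromosome 12, as do KRT7, KRT71 and KRT81, which are described below. The 50 neighbouring genes from SMAGP to HOXC9 had a median log2 fold change of −0.48. Their medians were 0.22 for CONTROL over SW480 and −0.70 for APC over CONTROL. SLC2A3, the gene of the glucose transporter GLUT3, was at 1258, 1278 and 1222 CPM in SW480 against 264, 269.8 and 259 CPM in APC (log2 fold change −2.24 ± 0.04, edgeR adjusted p = 3.8e-32). SLC1A5, the gene of a glutamine transporter, fell from 1596 ± 86 to 574 ± 22 CPM (log2 fold change −1.47 ± 0.04, edgeR adjusted p = 7.4e-26). PPFIBP1, whose product liprin-beta-1 sits at the cell edge, fell from 962 ± 17.2 to 207 ± 7.02 CPM (log2 fold change −2.22 ± 0.04, edgeR adjusted p = 9.4e-32). For each of these genes all 3 APC libraries lay below all 3 SW480 libraries. NELF, now named NSMF, behaved differently in the vector clone: it was at 2653, 2425 and 2447 CPM in SW480, 3976, 4226 and 4057 CPM in CONTROL and 732, 659.8 and 669 CPM in APC. CONTROL was thus highest and APC lowest, with log2 fold changes of −1.87 ± 0.05 for APC over SW480 and 0.70 ± 0.04 for CONTROL over SW480. DUSP6, a phosphatase of ERK, fell from 717 ± 18.8 to 136 ± 6.1 CPM (log2 fold change −2.40 ± 0.04, edgeR adjusted p = 1e-31), and KRT23, a type I keratin, from 569 ± 29.6 to 45.9 ± 0.771 CPM (log2 fold change −3.63 ± 0.05, edgeR adjusted p = 6.5e-36). The rule for this set also named CTNNB1, CCND1, APCDD1 and AXIN2, genes of beta-catenin and of outputs of its pathway, with log2 fold changes of −1.65 ± 0.04, −1.76 ± 0.04, −3.99 ± 0.05 and −3.12 ± 0.04.

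By the amount gained, an acute-phase gene led, followed by genes of varied roles. SAA1, which encodes the acute-phase protein serum amyloid A1, was at 106, 109 and 108 CPM in SW480 against 2186, 2324 and 2187 CPM in APC (log2 fold change 4.38 ± 0.04, edgeR adjusted p = 2.2e-38). CONTROL was intermediate at 375, 390.1 and 374 CPM, and none of the 3 lines overlapped. SAA2 and the readthrough gene SAA2-SAA4 gave log2 fold changes of 4.41 ± 0.05 and 4.41 ± 0.05, but these genes share nearly identical sequence, and how reads were divided among them is uncertain. ALDH1A3, an enzyme that makes retinoic acid, was at 146, 152 and 147 CPM in SW480 against 1027, 1024 and 1015 CPM in APC (log2 fold change 2.79 ± 0.04, edgeR adjusted p = 1e-34). TNFAIP2, a gene induced by tumour necrosis factor, was at 78.2, 74.7 and 69.6 CPM in SW480 against 916, 827 and 826 CPM in APC (log2 fold change 3.53 ± 0.05, edgeR adjusted p = 3.6e-33). SDC4, a cell surface proteoglycan gene, was at 161, 149 and 162 CPM in SW480 against 777, 792 and 773 CPM in APC (log2 fold change 2.31 ± 0.04, edgeR adjusted p = 3.1e-32). In all 3 genes the lines were separated by several fold, and CONTROL stood near SW480 at 113, 96.6 and 159 CPM. SLC12A7, a potassium-chloride cotransporter gene, rose from 37.4 ± 1.54 to 457 ± 37.4 CPM (log2 fold change 3.61 ± 0.05, edgeR adjusted p = 1.5e-27), and the median of the genes next to it was 0.45. MT2A, a metal-binding metallothionein, rose from 399 ± 41.1 to 1247 ± 20.7 CPM, B2M, the light chain of class I antigen-presenting molecules, from 306 ± 15.4 to 806 ± 32 CPM, and TXNRD1, thioredoxin reductase 1, from 326 ± 23.2 to 804 ± 17.6 CPM. For TXNRD1 CONTROL also stood above SW480, at 579 ± 28.8 CPM.

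Genes of at least 50 CPM in the higher line were also ranked by fold, if their APC and SW480 libraries did not overlap. The set that rose held several genes close to silence in SW480. C3 and CCL2, a complement component and a monocyte-attracting chemokine, headed it with log2 fold changes of 8.53 ± 0.08 and 8.85 ± 0.13. MMP9, a secreted matrix protease, was at 0.431, 0.268 and 0.591 CPM in SW480 against 55.1, 54.2 and 55.9 CPM in APC (log2 fold change 6.98 ± 0.12, edgeR adjusted p = 1.4e-31). DKK4, a secreted inhibitor of Wnt receptors, was at 0.862, 1.02 and 0.913 CPM in SW480 against 74.8, 74.2 and 71.9 CPM in APC (log2 fold change 6.29 ± 0.10, edgeR adjusted p = 3.4e-33). DKK4 thus rose in the line where AXIN2 and APCDD1 fell. ESRP1, a splicing factor of epithelial cells, was at 1.72, 1.34 and 1.02 CPM in SW480 against 86.2, 91.3 and 87.2 CPM in APC (log2 fold change 6.01 ± 0.09, edgeR adjusted p = 4e-33). MAL2, a protein of apical membrane transport, was at 2.75, 2.3 and 2.95 CPM in SW480 against 161, 177 and 173 CPM in APC (log2 fold change 5.99 ± 0.07, edgeR adjusted p = 6.6e-36). KRT7, a keratin of simple and glandular epithelia, rose from 3.35 ± 0.822 to 123 ± 1.81 CPM, while the genes next to it had a median of −0.44. WFDC2, a secreted protein of the protease inhibitor family, rose from 1.79 ± 0.40 to 96.1 ± 0.255 CPM, and MGST1, a membrane glutathione transferase, from 1.61 ± 0.247 to 64.4 ± 1.68 CPM. CD74, the invariant chain of class II antigen presentation, was at 7.97, 7.34 and 6.07 CPM in SW480 against 268, 274 and 305 CPM in APC (log2 fold change 5.31 ± 0.07, edgeR adjusted p = 3e-27). BIRC3, an inhibitor of apoptosis of the cIAP family, was at 3.72, 4.82 and 7.31 CPM in SW480 against 186, 197 and 202 CPM in APC (log2 fold change 5.20 ± 0.11, edgeR adjusted p = 1.7e-13). IL32, a cytokine gene, rose from 2.29 ± 0.331 to 78.8 ± 1.25 CPM (log2 fold change 5.10 ± 0.08, edgeR adjusted p = 1.2e-32). CONTROL was under 10 CPM for all 12 genes of this set.

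The corresponding set that fell held genes of varied roles. TMEM47 and TNNC1, genes of a junctional membrane protein and of a troponin subunit, had log2 fold changes of −7.64 ± 0.12 and −6.65 ± 0.11. ZAP70, a tyrosine kinase best known from T cells, was at 102, 100.0 and 102 CPM in SW480 against 1.43, 1.68 and 2.1 CPM in APC (log2 fold change −5.86 ± 0.08, edgeR adjusted p = 2.3e-34). CPLX2, a protein of vesicle fusion at synapses, was at 305, 300.2 and 330.0 CPM in SW480 against 7.53, 8.56 and 7.31 CPM in APC (log2 fold change −5.32 ± 0.06, edgeR adjusted p = 9.6e-36). NGFR, the low-affinity neurotrophin receptor, was at 389, 346 and 373 CPM in SW480 against 12.6, 10.9 and 10.7 CPM in APC (log2 fold change −5.01 ± 0.06, edgeR adjusted p = 1.3e-35). The vector clone had moved the same way for part of this set: NGFR stood at 74.3, 75.4 and 71.3 CPM and ZAP70 at 28.6, 28.7 and 28.3 CPM in CONTROL. MAOB, a mitochondrial monoamine oxidase, fell from 54.9 ± 2.16 to 1.18 ± 0.182 CPM, SDK1, an adhesion molecule gene, from 77.7 ± 1.69 to 2.59 ± 0.568 CPM, and GJB1, the connexin 32 gene, from 53.1 ± 2.04 to 1.89 ± 0.258 CPM. CST1, a cysteine protease inhibitor, fell from 118 ± 7.78 to 4.7 ± 1.4 CPM (log2 fold change −4.65 ± 0.14, edgeR adjusted p = 6.5e-10). VGF, a neuropeptide precursor, was at 159, 113 and 127 CPM in SW480 against 6.05, 5.9 and 6.02 CPM in APC (log2 fold change −4.47 ± 0.19, edgeR adjusted p = 3.9e-07). Its SW480 libraries were the most spread of this set, and all 3 lay above the APC libraries, as the rule for this set required. GPR64, an adhesion receptor gene, and PIP5K1B, a lipid kinase gene, fell from 52.8 ± 3.6 to 2.38 ± 0.0168 CPM and from 58.7 ± 3.6 to 2.68 ± 1.1 CPM.

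**Figure D2:**
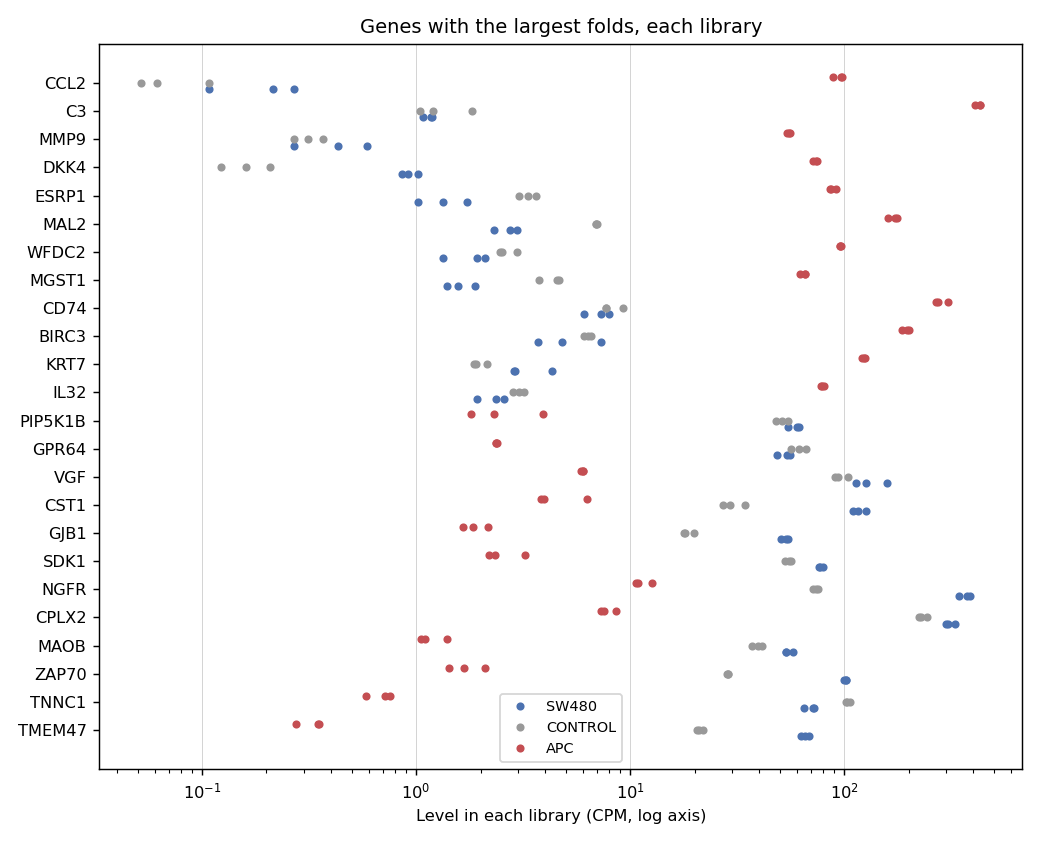
Each dot is 1 library, with the gene's level in CPM on a log axis, for the 12 genes that rose and the 12 that fell with the largest folds among genes of at least 50 CPM; blue is SW480, grey is CONTROL and red is APC. The red dots stand apart from the blue dots in every row because only genes without overlap of these libraries were ranked. The grey dots of NGFR (73.7 CPM) and ZAP70 (28.5 CPM) lie between the red and blue dots.

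Because genes known to respond to tumour necrosis factor, such as TNFAIP2 and BIRC3, were among those named, the promoters of the named genes were searched for a motif of the transcription factor NF-kappaB, GGG followed by any 2 bases and TTTCC, and for a TCF/LEF motif, CTTTGNT. The search covered the 250 bases before the gene start on both strands in the RefSeq promoter table of build GRCh38.p14. The NF-kappaB motif occurred in 1.73% of 35116 promoters in the table. Among the genes named by level or fold, it was found for 3 of 12 genes that rose and had an entry, BIRC3, B2M and IL32, and for 1 of 14 that fell, ZAP70. Over all genes it was found for 5.37% of the 745 genes with an entry that rose by more than 2-fold, 1.81% of the 1049 that fell by more than 2-fold and 2.62% of the 10118 genes tested. The TCF/LEF motif was found for 14.9%, 15.5% and 12.5% of the same genes. A match is only a description of the letters, and its part in the changes was not tested. The stretches around the match in the 3 genes that rose are shown because they carry it, 5′ to 3′ on the plus strand, which is the strand of each gene, with the match in capitals.
BIRC3: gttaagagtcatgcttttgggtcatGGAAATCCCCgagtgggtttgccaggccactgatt
B2M: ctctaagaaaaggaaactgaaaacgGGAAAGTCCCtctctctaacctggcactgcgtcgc
IL32: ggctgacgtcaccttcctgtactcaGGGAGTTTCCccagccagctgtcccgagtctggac
These lie at chr11:102317260-102317319, chr15:44711367-44711426 and chr16:3065279-3065338 in GRCh38.p14, upstream of the gene, and the matches begin 199, 125 and 99 bases before the gene start. In BIRC3 and B2M the motif lies on the minus strand and in IL32 on the plus strand.

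Growth factor signalling was rearranged. Of 15 genes tested from a list of the EGF receptor family, its ligands and related receptors, 12 rose and 2 fell, 9 of the former and 0 of the latter by more than 2-fold, with a median of 1.11. MET, the receptor of hepatocyte growth factor, was at 8.35, 9.06 and 9.72 CPM in SW480 against 108, 116 and 104 CPM in APC (log2 fold change 3.60 ± 0.07, edgeR adjusted p = 1.5e-30). ERRFI1, an inhibitor of the EGF receptor, was at 25.1, 25.6 and 27.5 CPM in SW480 against 144, 144 and 146 CPM in APC (log2 fold change 2.47 ± 0.05, edgeR adjusted p = 5.6e-30). Receptors of one family moved in opposite directions: ERBB3 rose from 8.33 ± 0.199 to 31.1 ± 1.21 CPM and ERBB2 fell from 74.9 ± 1.19 to 45.6 ± 2.42 CPM. The ligand AREG rose from 0.322 ± 0.107 to 2.01 ± 0.245 CPM, a low level, and NRG2, another ligand, fell from 5.46 ± 0.319 to 2.84 ± 0.20 CPM.

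Genes that lie downstream of ERK differed in direction. In a list of ERK feedback and AP-1 genes 9 rose and 19 fell of 29 tested (median −0.52), with 2 and 8 beyond 2-fold. The medians of this list were −0.28 for CONTROL over SW480 and −0.12 for APC over CONTROL. FOS, a subunit of AP-1, was at 93.8, 109 and 97.7 CPM in SW480 against 8.19, 6.71 and 8.24 CPM in APC (log2 fold change −3.70 ± 0.09, edgeR adjusted p = 7.9e-20). EGR1, an immediate early transcription factor, was at 234, 327 and 255 CPM in SW480 against 25.7, 26 and 29.6 CPM in APC (log2 fold change −3.33 ± 0.19, edgeR adjusted p = 3.4e-06). EGR3 and EGR2 fell with log2 fold changes of −3.68 ± 0.09 and −2.54 ± 0.25. FOSL1, another AP-1 subunit, moved against them and rose from 109 ± 9.08 to 201 ± 12.2 CPM, and the phosphatases DUSP5 and DUSP4 rose by 1.06 ± 0.06 and 0.85 ± 0.06, whereas DUSP6 fell. Of 15 FGF pathway genes tested 2 rose and 10 fell, 2 and 7 beyond 2-fold (median −0.74). The medians of the FGF list were −0.31 for CONTROL over SW480 and −0.38 for APC over CONTROL. FGF19, a ligand that acts as a gut hormone, was at 169, 155 and 149.8 CPM in SW480, 48.3, 47.6 and 44.3 CPM in CONTROL and 33.7, 33.1 and 35 CPM in APC (log2 fold change −2.22 ± 0.05, edgeR adjusted p = 2.9e-28). Most of that distance was already present between CONTROL and SW480, at −1.76 ± 0.05, against −0.46 ± 0.06 for APC over CONTROL. The ligands FGF18, FGF13 and FGF3 fell with log2 fold changes of −4.09 ± 0.19, −4.57 ± 0.28 and −1.88 ± 0.07, and the receptor FGFR2 rose from 3.78 ± 0.415 to 8.05 ± 1.36 CPM.

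Ligands, inhibitors and targets of TGF-beta and BMP signalling split evenly beyond 2-fold, with 9 higher and 9 lower among 34 tested, and 13 and 16 at any size (median −0.18). The inhibitors of DNA binding encoded by ID1 and ID2, both known BMP targets, moved in opposite directions. ID2 was at 346, 342 and 327 CPM in SW480 against 14.2, 16.2 and 16.7 CPM in APC (log2 fold change −4.43 ± 0.05, edgeR adjusted p = 2.8e-36). ID1 was at 3.12, 3.64 and 2.9 CPM in SW480 against 26.5, 21.7 and 24.1 CPM in APC (log2 fold change 2.90 ± 0.11, edgeR adjusted p = 2.6e-22). Neither gene's libraries overlapped between the lines, and CONTROL was near SW480 at 364 and 2.55 CPM. Of the ligands, BMP4 fell from 194 ± 3.89 to 50.3 ± 1.79 CPM, BMP2 rose from 0.322 ± 0.142 to 4.09 ± 0.564 CPM and INHBB, an activin chain, rose from 15.4 ± 0.585 to 77.6 ± 2.51 CPM. Of the inhibitors, BAMBI, a decoy receptor, fell from 197 ± 15.6 to 28.9 ± 1.95 CPM and SMAD6 rose from 4.41 ± 1.28 to 24.9 ± 2.87 CPM.

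Other developmental pathways were mixed as well. Among Notch genes 7 rose and 12 fell of 24 tested (median −0.11). HES1, a Notch target that represses secretory fate in the gut, fell from 31.5 ± 0.973 to 18.1 ± 0.565 CPM, while its relative HES7 rose from 9.31 ± 1.13 to 43.7 ± 4.67 CPM. DNER, a Notch ligand of neurons, had 2 counts in the 3 SW480 libraries together and 526 in APC, a ratio of 279 with a 95% interval of 76.9 to 2312. Among YAP and TEAD genes 11 rose and 12 fell of 25 (median −0.07). CTGF, a secreted matricellular YAP target, was at 29.4, 29.4 and 26.9 CPM in SW480 against 1.59, 2.49 and 2.34 CPM in APC (log2 fold change −3.74 ± 0.11, edgeR adjusted p = 3.8e-25). F3, tissue factor, was at 7.97, 9.0 and 8.06 CPM in SW480 against 96.2, 104 and 100.2 CPM in APC (log2 fold change 3.58 ± 0.07, edgeR adjusted p = 3.6e-31). Both are counted among the targets of the same coactivator, and their libraries lay apart in opposite directions. Among Hedgehog and retinoid genes 8 rose and 12 fell of 21 (median −0.47). The Hedgehog transducer SMO fell from 13.3 ± 0.709 to 1.1 ± 0.262 CPM and the effector GLI3 from 206 ± 4.22 to 52.7 ± 1.41 CPM. The retinoid enzymes ALDH1A3, given above, and DHRS3 rose, DHRS3 from 9.96 ± 0.392 to 103 ± 1.97 CPM.

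Among transcription factors of the gut and of stem cells 11 rose and 11 fell of 25 (median 0.13). KLF4, a factor of differentiated epithelial cells, was at 5.01, 3.91 and 5.1 CPM in SW480 against 29, 27.9 and 29.3 CPM in APC (log2 fold change 2.62 ± 0.09, edgeR adjusted p = 3.2e-23). KLF5, its relative in proliferating crypt cells, was at 100.1, 96.9 and 102 CPM in SW480 against 35.1, 35.9 and 38.4 CPM in APC (log2 fold change −1.45 ± 0.05, edgeR adjusted p = 1.8e-23). The epithelial Ets factors ELF3 and EHF rose with log2 fold changes of 3.98 ± 0.08 and 2.30 ± 0.06, and EHF was lower in CONTROL, at 2.51 ± 0.414 CPM, than in SW480, at 17.3 ± 0.638 CPM. SOX4 and RNF43, a factor and a Wnt receptor regulator, fell with −1.56 ± 0.06 and −1.41 ± 0.05, and SOX9, a crypt and Paneth cell factor, with −0.62 ± 0.05. The enteroendocrine and Paneth list had 1 higher and 5 lower of 6 (median −0.77), against −1.13 for CONTROL over SW480 and −0.00 for APC over CONTROL. Of 34 HOX genes tested 4 rose and 17 fell, 1 and 10 beyond 2-fold (median −0.31). HOXB8, of the HOXB cluster, was at 179, 163 and 164 CPM in SW480, 93.7, 98.5 and 92.4 CPM in CONTROL and 38.3, 34.6 and 37.1 CPM in APC (log2 fold change −2.20 ± 0.05, edgeR adjusted p = 1.2e-28). HOXB2 and HOXB3 fell with −2.20 ± 0.10 and −1.83 ± 0.05, beside a median of −0.48 for the genes around HOXB8, while HOXA10 rose with 1.05 ± 0.07. Nuclear receptors had 10 higher and 8 lower of 21 (median 0.16). PPARG, a lipid-sensing receptor of colonocytes and fat cells, was at 1.56, 1.66 and 1.5 CPM in SW480 against 16.6, 17.8 and 17.4 CPM in APC (log2 fold change 3.45 ± 0.13, edgeR adjusted p = 1.3e-22), although the genes next to it had a median of −0.88. PPARD, the delta member of that family, was at 134, 133 and 131 CPM in SW480 against 33.9, 34.6 and 33.7 CPM in APC (log2 fold change −1.96 ± 0.05, edgeR adjusted p = 4.7e-28). The glucocorticoid receptor gene NR3C1 rose from 11.7 ± 0.948 to 37.4 ± 1.92 CPM, and NR2F1 fell from 39.9 ± 3.69 to 3.61 ± 0.221 CPM.

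Genes of the epithelial surface shifted in both directions. Of 19 colonocyte transport and enzyme genes 11 rose and 4 fell (median 0.47). SCNN1A, a subunit of the epithelial sodium channel of the distal colon, was at 33.5, 36 and 32.7 CPM in SW480 against 409.9, 392 and 406 CPM in APC (log2 fold change 3.56 ± 0.05, edgeR adjusted p = 3.4e-35). SLC26A2, a sulphate transporter, rose from 48.9 ± 0.931 to 96.5 ± 1.6 CPM, and the potassium channel subunit KCNE3 fell from 10.3 ± 0.341 to 0.517 ± 0.165 CPM. Of 19 mucin and mucin glycosylation genes 11 rose and 6 fell (median 0.25). MUC2, the main secreted mucin of goblet cells, had 9 counts over the SW480 libraries and 307 over the APC libraries, or 0.161 ± 0.142 and 5.82 ± 1.02 CPM (log2 fold change 5.12 ± 0.32, edgeR adjusted p = 1e-15). MUC16, a membrane mucin, fell from 9.87 ± 0.22 to 0.134 ± 0.0362 CPM. GALNT3, an enzyme that starts mucin-type glycans, had 0 counts in SW480 and was at least 174-fold higher in APC, against a floor of 3 counts per library. Keratins and envelope genes had 10 higher and 10 lower of 21 (median −0.09). Beside KRT7, the keratins KRT13 and KRT6A rose with 2.77 ± 0.10 and 1.41 ± 0.13, and KRT81 and KRT71 fell with −2.14 ± 0.06 and −5.54 ± 0.11. Some keratin genes are near-copies of others, and the division of reads among those is uncertain. Protease inhibitors and trypsin-like proteases had 17 higher and 9 lower of 29, 15 and 4 beyond 2-fold, and the highest median of the lists with at least 10 members, 1.18. ST14, the membrane protease matriptase, was at 21.8, 20.7 and 21.8 CPM in SW480 against 307, 289.7 and 284 CPM in APC (log2 fold change 3.78 ± 0.05, edgeR adjusted p = 2.2e-35). The membrane and secreted serine proteases TMPRSS2 and PRSS22 rose with 4.09 ± 0.17 and 4.20 ± 0.17, and the kallikrein KLK7 fell with −1.92 ± 0.13.

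Biosynthetic genes moved by small amounts but often together. Of 40 nucleolar genes of ribosome production 34 rose and 3 fell, with a median of 0.31 and 1 beyond 2-fold, where the background is 35.6% higher. NOLC1, a nucleolar phosphoprotein, was at 271, 278 and 295 CPM in SW480 against 604, 630.1 and 637 CPM in APC (log2 fold change 1.15 ± 0.04, edgeR adjusted p = 9e-24), in a neighbourhood with a median of 0.52. DDX21, a nucleolar RNA helicase, rose from 262 ± 16.2 to 473 ± 15.2 CPM. Of 35 respiratory chain genes 30 rose and 2 fell (median 0.29). CYC1, cytochrome c1, rose from 143 ± 5.73 to 209 ± 6.71 CPM, and UQCRC1, another subunit of the same complex, fell from 352 ± 5.82 to 249.9 ± 0.14 CPM beside neighbours with a median of −0.54. In the vector clone, set against the same SW480 libraries, these lists had medians of 0.19 and 0.11. Sterol synthesis genes had 16 higher and 3 lower of 24 (median 0.39, CONTROL over SW480 −0.00), and fatty acid synthesis genes 10 and 3 of 15 (median 0.34). ACSL5, an acyl-CoA synthetase of the intestine, rose from 9.71 ± 0.351 to 86.4 ± 1.53 CPM, and STARD4, a sterol carrier, fell from 63.9 ± 4.32 to 27.6 ± 1.98 CPM. Among fatty acid oxidation and ketogenesis genes 7 rose and 6 fell of 16.

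Nutrient and stress responses had their own pattern. Genes of the amino acid response and of amino acid synthesis had 6 higher and 19 lower of 26 (median −0.44), whereas CONTROL over SW480 gave a median of 0.47. DDIT3, the stress transcription factor CHOP, was at 14.4, 17.6 and 17.6 CPM in SW480, 46.7, 43.6 and 44.8 CPM in CONTROL and 4.62, 5.09 and 6.25 CPM in APC (log2 fold change −1.64 ± 0.11, edgeR adjusted p = 1.9e-15). STC2, a secreted glycoprotein induced by the same response, rose from 61.3 ± 2.03 to 236 ± 8.07 CPM. Hypoxia response genes had 11 higher and 5 lower of 19, 7 and 1 beyond 2-fold (median 0.19). CA9, the carbonic anhydrase used as a hypoxia marker, was at 0.592, 0.857 and 0.537 CPM in SW480 against 17.9, 16.1 and 15 CPM in APC (log2 fold change 4.61 ± 0.18, edgeR adjusted p = 3.7e-21). NDRG1, another hypoxia-induced gene, was at 104, 95.9 and 112 CPM in SW480 against 20.0, 20.0 and 19.2 CPM in APC (log2 fold change −2.40 ± 0.06, edgeR adjusted p = 2.8e-27). The members of this list therefore did not move as one, and fewer cells were plated for APC, whose part was not tested. Glycolysis and glucose uptake genes had 15 higher and 6 lower of 24 (median 0.18), with SLC2A3 the gene beyond 2-fold. Metal-handling genes had 13 and 4 of 24 (median 0.35), among them LCN2, a siderophore-binding defence protein that rose from 3.94 ± 0.64 to 118 ± 1.5 CPM. NRF2 targets had 12 and 8 of 28 (median 0.06), heat shock proteins 9 and 5 of 20 (median 0.07), and endoplasmic reticulum folding genes 10 and 8 of 21 (median 0.05). Proteasome genes had 10 higher and 15 lower of 32 (median −0.07), aminoacyl-tRNA synthetases 10 and 6 of 19 (median 0.10), and none of either list passed 2-fold. Lysosomal genes had 9 higher and 17 lower of 31 (median −0.28). Within them the cathepsins parted: CTSS, a protease of antigen processing, rose from 3.05 ± 0.577 to 54.7 ± 2.67 CPM, CTSD rose from 169 ± 12.3 to 365 ± 17.8 CPM and CTSB fell from 448 ± 10.2 to 221 ± 3.94 CPM.

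Enzymes that handle drugs and signalling lipids included large differences. Prostaglandin and eicosanoid genes had 10 higher and 4 lower of 19, 8 and 2 beyond 2-fold (median 0.78). ALOX5AP, which presents arachidonic acid to 5-lipoxygenase, was at 0.323, 0.643 and 0.859 CPM in SW480 against 32.7, 38.2 and 40.2 CPM in APC (log2 fold change 5.91 ± 0.15, edgeR adjusted p = 3.1e-24). The prostaglandin transporter SLCO2A1 and the prostaglandin E2 receptors PTGER2 and PTGER4 rose with 5.11 ± 0.13, 3.70 ± 0.25 and 2.71 ± 0.31. HPGD, the enzyme that inactivates prostaglandins, was at 50.0, 53.9 and 48.1 CPM in SW480 against 19.1, 20.9 and 23.4 CPM in APC (log2 fold change −1.26 ± 0.06, edgeR adjusted p = 1.4e-18). Polyamine and nucleotide synthesis genes had 21 higher and 7 lower of 33 (median 0.15). DPYD, which degrades pyrimidines and the drug 5-fluorouracil, had 1 count in the SW480 libraries together and 244 in APC, a ratio of 259 with a 95% interval of 46.1 to 10277. Xenobiotic enzymes and ABC transporters were even, with 9 higher and 9 lower of 22 (median −0.04), and ABCB1, the drug efflux pump P-glycoprotein, fell from 22.2 ± 0.683 to 5.64 ± 0.618 CPM. Apoptosis genes had 20 higher and 10 lower of 35 (median 0.35). TNFSF10, the death ligand TRAIL, rose from 0.984 ± 0.355 to 7.11 ± 0.279 CPM, the inflammatory caspase CASP4 from 0.34 ± 0.31 to 6.63 ± 0.319 CPM, and BCL2L1, which encodes BCL-XL, fell from 563 ± 12.8 to 396 ± 3.95 CPM.

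Genes of guidance cues and of microtubules, to which APC itself binds, were also counted. Semaphorins, plexins, Slits and netrins had 8 higher and 21 lower of 32, 5 and 10 beyond 2-fold (median −0.44), and the medians were −0.40 for CONTROL over SW480 and −0.14 for APC over CONTROL. SLIT1, a repulsive ligand, was at 24.2, 24.8 and 22.2 CPM in SW480 against 0.495, 0.81 and 0.643 CPM in APC (log2 fold change −5.18 ± 0.14, edgeR adjusted p = 1.3e-26). Its receptor gene ROBO1 was at 12.7, 12.4 and 12.9 CPM in SW480, 0.269, 0.246 and 0.052 CPM in CONTROL and 0.715, 0.578 and 0.818 CPM in APC (log2 fold change −4.15 ± 0.17, edgeR adjusted p = 3.2e-21). ROBO1 was therefore lowest in the vector clone, with APC over CONTROL at 1.89 ± 0.44. Ephrins and Eph receptors were even, 8 and 8 of 16 (median −0.06). EFNB1, a ligand of the EphB receptors that position crypt cells, was at 366, 323 and 332 CPM in SW480 against 46, 39.6 and 42.5 CPM in APC (log2 fold change −2.99 ± 0.06, edgeR adjusted p = 1.9e-20). EFNB2, its close relative, rose from 6.23 ± 0.947 to 23.8 ± 0.0989 CPM, and the receptor EPHB3 fell from 12.5 ± 1.01 to 5.66 ± 0.684 CPM. Microtubule genes and partners of the APC protein had 12 higher and 18 lower of 37, 1 and 8 beyond 2-fold (median −0.05). MAP7, an epithelial microtubule-binding protein, was at 1.72, 1.71 and 1.72 CPM in SW480 against 38.3, 40.5 and 39.6 CPM in APC (log2 fold change 4.51 ± 0.10, edgeR adjusted p = 1.9e-28). DCLK1, a microtubule-binding kinase that marks intestinal tuft cells, was at 122, 114 and 126 CPM in SW480 against 7.64, 9.2 and 8.94 CPM in APC (log2 fold change −3.82 ± 0.06, edgeR adjusted p = 3e-32). TUBB3 and MAPT, the neuronal beta-tubulin and tau, fell with −2.13 ± 0.06 and −2.27 ± 0.13.

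The remaining lists were mixed or small. DNA methylation and Polycomb genes had 10 higher and 18 lower of 34 (median −0.13), with the DNA methyltransferase DNMT3A at −1.14 ± 0.09 and DNMT3B at 0.44 ± 0.11. S100 proteins and annexins had 11 and 9 of 21 (median 0.13). Motile cilia genes had 5 and 4 of 17 (median −0.14), so FOXJ1, the master factor of motile cilia, which rose with 7.89 ± 0.19, was not joined by most of the list. Splicing regulators had 10 and 11 of 35 (median −0.02). Cancer-testis antigens had 0 higher and 4 lower of 5 tested (median −1.79, CONTROL over SW480 1.09).

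**Figure D3:**
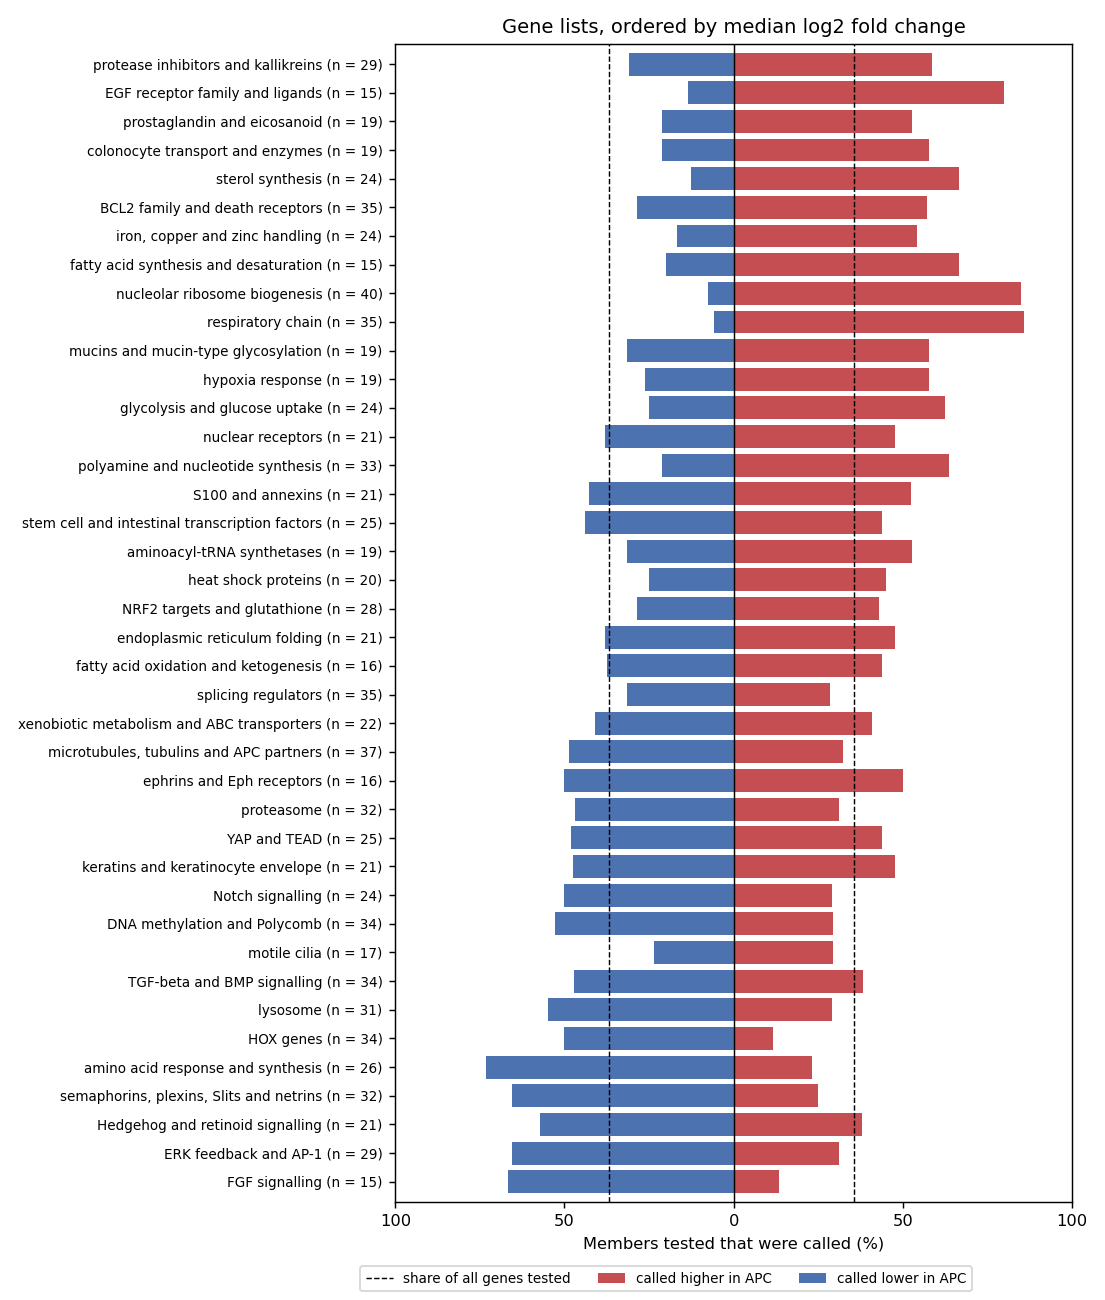
Bars give the share of tested members of each gene list that rose (red, to the right) or fell (blue, to the left) in APC against SW480, in percent, for the lists described here with at least 10 members tested, ordered by median log2 fold change; dashed lines mark the shares over all genes tested, 35.6% and 36.9%. Nucleolar and respiratory chain genes have the longest red bars and the amino acid response the longest blue bar, while many lists sit near the dashed lines on both sides.

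Variable exons of the adhesion receptor CD44 were counted far more often in APC than in SW480. Splicing regulators had 10 higher and 11 lower of 35 tested (median −0.02). By more than 2-fold 0 fell, where the background is 11.1% of genes, and 4 rose, where it is 7.91%. They included ESRP1, given above, and its relative ESRP2, which was at 27.3, 25.9 and 24.1 CPM in SW480 against 66.7, 59.5 and 64.4 CPM in APC (log2 fold change 1.30 ± 0.06, edgeR adjusted p = 4.9e-20). The others were MBNL3, which rose from 2.77 ± 0.561 to 12.9 ± 0.578 CPM, and CELF2, with 3 counts in SW480 and 550 in APC, a ratio of 195 with a 95% interval of 66.3 to 947. ESRP proteins are known to promote inclusion of the variable exons of CD44, a hyaluronan receptor whose standard form lacks them. Whether ESRP1 or ESRP2 had a part in the CD44 counts was not tested. The deposited transcripts of CD44 are nested, so the difference of their counts gives the reads that fell only on variable exons: v2, v3 to v7, v8 to v9 and v10. Over all 9 variable exons, which together have 1143 bases, SW480 had 22, 45 and 31 such reads, CONTROL 53, 39 and 44, and APC 916, 853 and 793. They made up 0.985% ± 0.310 of CD44 reads in SW480, 1.08% ± 0.106 in CONTROL and 14.2% ± 0.904 in APC. In CPM they went from 1.75 ± 0.618 in SW480 to 48.7 ± 2.09 in APC, a ratio of 27.8, while the standard form went from 175 ± 6.06 to 295 ± 9.84 CPM, a ratio of 1.69. The ratio of the standard transcript to the full-length transcript fell in the fit over all transcripts (log2 change of the ratio −0.21 ± 0.0074 (SE), limma adjusted p = 6.9e-07). Only transcripts at no more than 95% of the main transcript over the 9 libraries were tested. The standard transcript stood at 99.0% in SW480, 98.9% in CONTROL and 85.8% in APC. It thus entered the test only through APC, and this p-value adds no support to the difference. The blocks did not gain reads equally. In APC the first of them, v2, had 5, 2 and 7 reads, v3 to v7 had 283, 301 and 250, v8 to v9 had 309, 273 and 262 and v10 had 319, 277 and 274. Relative to the read density of the standard form, per base, these were 3.2% for v2, 39.9% for v3 to v7, 130% for v8 to v9 and 126% for v10, against 0.367%, 3.01%, 4.84% and 8.48% in SW480. Densities above 100% show that read density varies along the transcript and is not a share of molecules. The reads of APC were therefore concentrated on v8 to v10, the exons known together from the epithelial form of CD44. Their sequences are shown because they carry this difference, all coding and on the plus strand, 5′ to 3′, matched to the deposited transcripts by length and taken from GENCODE transcripts of build GRCh38, at chr11:35208105-35208206, chr11:35209965-35210054 and chr11:35211246-35211449.
v8: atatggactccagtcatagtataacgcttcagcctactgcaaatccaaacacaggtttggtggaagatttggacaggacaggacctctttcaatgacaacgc
v9: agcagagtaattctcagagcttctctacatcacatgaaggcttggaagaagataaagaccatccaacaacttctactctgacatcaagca
v10: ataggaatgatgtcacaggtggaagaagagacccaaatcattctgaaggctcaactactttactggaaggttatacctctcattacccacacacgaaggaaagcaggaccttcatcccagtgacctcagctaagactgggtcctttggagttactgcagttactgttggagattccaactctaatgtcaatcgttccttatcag
No base is in capitals because the whole exon is the item that differs.

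Beyond CD44, 5284 further transcripts of 3016 genes were compared with the main transcript of their gene. The ratio differed for 8.67% of them, 5.19% higher and 3.48% lower, by limma, in 269 genes. Most changes were small, with a median absolute log2 change of 0.19 among those called, and 16 ratios of 12 genes passed 2-fold. Of 36 genes listed for splice or promoter forms, 15 could be tested and 4 were called: CD44, EPB41L5, KIF1B and LSR. EPB41L5 encodes a FERM-domain protein of epithelial polarity, and the counts of its long and short transcripts changed places. Transcripts of a gene can share reads, and these differ in length, at 6607 and 4675 bases. Their counts are therefore not amounts of each form. The long transcript NM_020909 had 732, 774 and 743 reads in SW480 and 421, 416 and 407 in APC, and the short NM_001184938 had 344, 349 and 370.0 in SW480 and 594, 621 and 586 in APC (log2 change of the ratio 1.61 ± 0.0442 (SE), limma adjusted p = 2.3e-07). The long form had the higher count in all SW480 libraries and the short form in all APC libraries. CONTROL had 725, 586 and 728 long and 407, 361 and 437 short reads. Its ratio of short to long reads lay between those of the other lines, at 59.3% ± 2.81, against 47.3% ± 2.37 in SW480 and 145% ± 4.15 in APC. KIF1B, a kinesin, raised the share of its transcript NM_183416 relative to the main one from 43.2% ± 2.07 to 55.1% ± 2.19, with CONTROL between them at 50.4% ± 0.826 (log2 change of the ratio 0.35 ± 0.038 (SE), limma adjusted p = 0.0009). LSR, a receptor of tricellular junctions, changed little in ratio (log2 change of the ratio 0.06 ± 0.00997 (SE), limma adjusted p = 0.007). In TRIM36, a ubiquitin ligase, the further transcript NM_001017397 went from 35, 31 and 22 reads in SW480 to 4.0, 2.0 and 4.0 in APC, whereas the main transcript had 270.0, 283 and 242 and 224, 254 and 251 (log2 change of the ratio −2.86 ± 0.34 (SE), limma adjusted p = 0.0012). In ETV7, an Ets factor, the main transcript went from 3.0, 5.0 and 3.0 reads in SW480 to 73, 72 and 70.0 in APC. The further transcript NM_001207039 went from 11, 16 and 7.0 to 50.0, 54 and 47 (log2 change of the ratio −1.97 ± 0.31 (SE), limma adjusted p = 0.0056). CONTROL had 6, 8 and 12 main and 16, 8 and 18 further reads. The main transcript of ETV7 thus ranked first, and entered the test, only through APC. Its SW480 counts were also very low. The p-value for ETV7 therefore adds no support to the difference. ACSM3, GREB1, RGS5 and ATP1A1OS were also among the 8 largest changes in one direction and were low, with 1.44 to 15.3 CPM for the main transcript. The ratios of HLA-B and HLA-C copies are uncertain because those genes are near-identical, and that of NTM rests on no more than 1 read per transcript and library in APC.

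**Figure D4:**
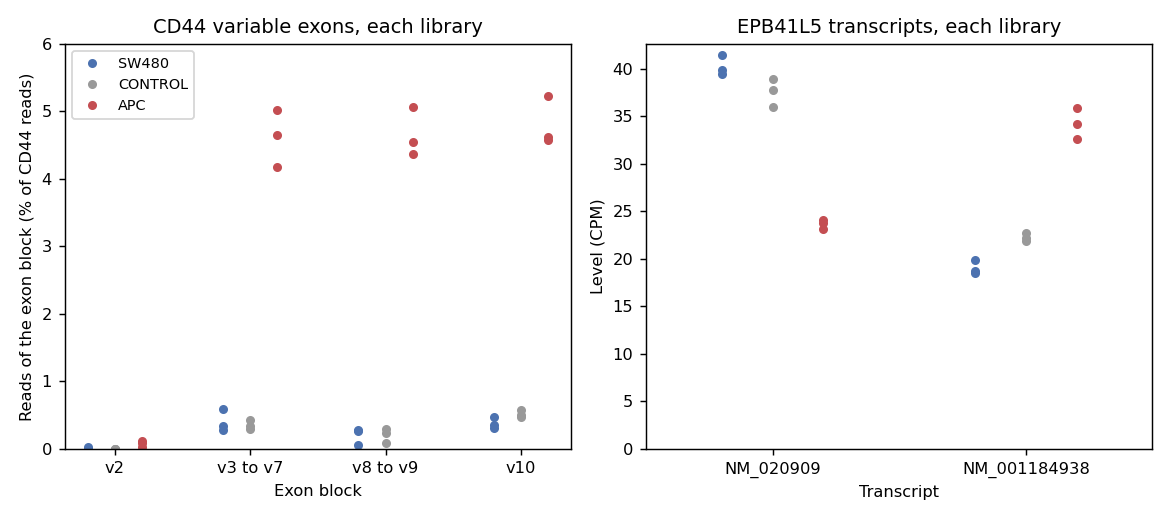
Each dot is 1 library: on the left, reads of each block of CD44 variable exons in percent of CD44 reads, and on the right, the level in CPM of the long (NM_020909) and short (NM_001184938) transcripts of EPB41L5; blue is SW480, grey CONTROL and red APC. APC libraries stand above both other lines in the CD44 blocks v3 to v7, v8 to v9 and v10, and in EPB41L5 the red dots are below the others for the long form and above them for the short form.

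Changes were also examined along the order of genes on the chromosomes. Tested genes were put in RefSeq order and the median log2 fold change was taken over 518 overlapping runs of 50 genes. Run medians had an SD of 0.206 with quartiles of −0.10 and 0.09, and 22 runs lay below −0.4 and 16 above 0.4. The lowest was the run from TRNT1 to IQSEC1 with a median of −0.88, in which 43 of 50 genes fell. The vector clone showed most of the same shift, with −0.72 for CONTROL over SW480 and −0.12 for APC over CONTROL. The runs next to it, JAGN1 to OXNAD1 and NUP210 to CMTM8, had medians of −0.84 and −0.81. The run from ZCRB1 to SPATS2 had a median of −0.78, of which −0.09 was measured for CONTROL over SW480 and −0.68 for APC over CONTROL. Among runs that rose, XPNPEP1 to PPAPDC1A had a median of 0.62 and FAM160B1 to LOC283038 one of 0.62. The runs from ANKHD1 to PCDHGB7 and from PCDHA11 to DPYSL3 were highest, at 0.77 and 0.76, but they hold protocadherin transcripts that share their last exons and so their reads. These runs touch some genes described above: UQCRC1 and PPARG lay among neighbours that fell, and ACSL5 and NOLC1 among neighbours that rose, with medians of −0.54, −0.88, 0.58 and 0.52. CTNNB1 lies between the ends of the run from CMTM7 to GTDC2, in which 42 of 50 genes fell. The median of that run was −0.53, beside −0.40 for CONTROL over SW480 and −0.16 for APC over CONTROL. Of 2623 genes that changed by more than 2-fold and could be placed, 8.84% had neighbours with a median beyond 0.4 in the same direction. Of all 13797 genes placed, 7.86% had neighbours beyond 0.4 in either direction. The same direction was required for the first share alone, so these shares cannot be compared with each other. What sets these runs apart was not tested.

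**Figure D5:**
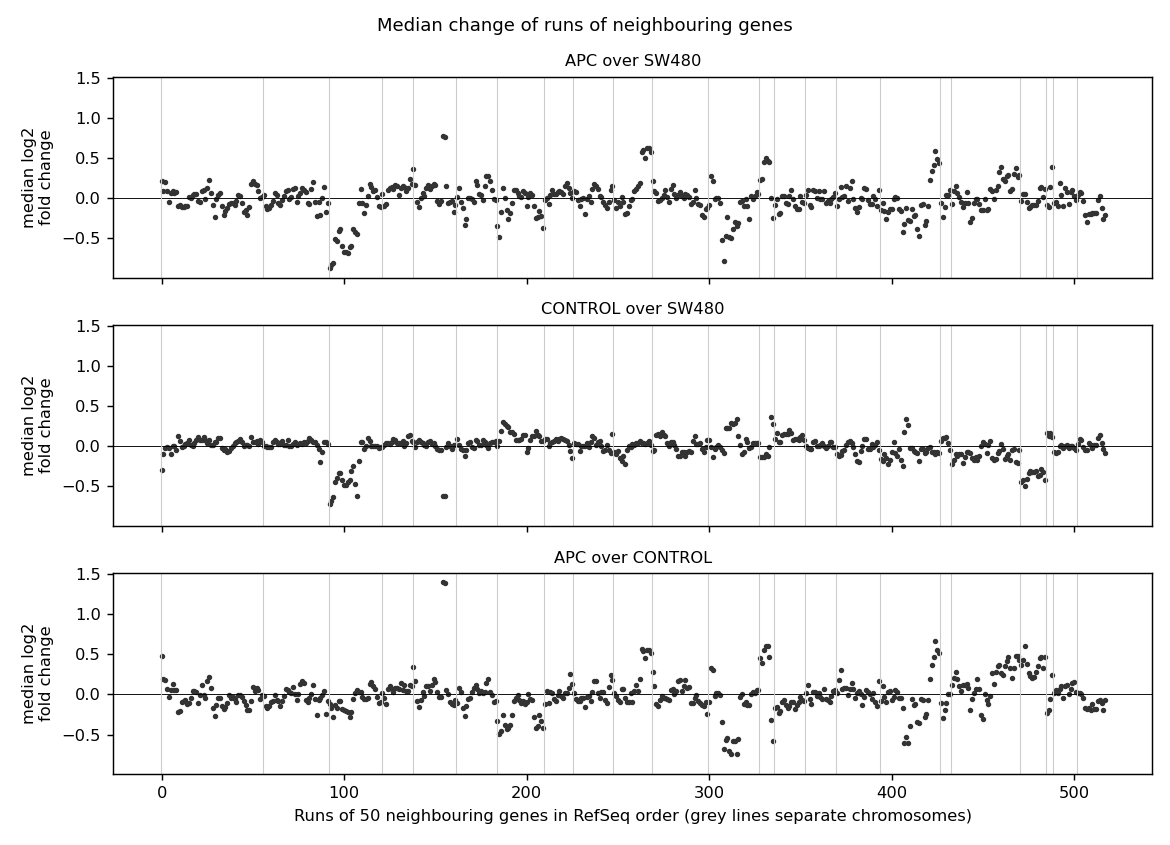
Each dot is the median log2 fold change of 50 neighbouring genes, in RefSeq gene order, for APC over SW480 (top), CONTROL over SW480 (middle) and APC over CONTROL (bottom), which share libraries. The lowest stretch of the top panel, at −0.88, is also low in the middle panel, at −0.72, whereas the dip to −0.78 near run 310 is absent there and reappears in the bottom panel at −0.68.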

How the data were processed

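The deposited counts are whole numbers of reads per RefSeq transcript, not normalised. The authors computed RPKM per the file headers, and each deposited RPKM equalled the count over the deposited length and a constant per library for 100% of values (relative tolerance 0.0001). Reads were processed with Trimmomatic, TopHat and GATK on build hg19, per the submitters' processing notes. Neither the counting tool nor the use of strand is given in the sources used here, so overlapping genes cannot be told apart by strand. Of 39276 transcripts, the one with the highest total over the 9 libraries stood for each of 20876 genes, after repair of 64 of 65 date-like names.

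The gene test was that of edgeR 4.0.16, run in R 4.3.3 (TMM, filterByExpr, robust glmQLFit, glmQLFTest), in 1 fit of 9 libraries, which left 14253 genes, with Benjamini-Hochberg adjustment over all of them. Levels are edgeR CPM. The SE of a gene's log2 fold change is its absolute value over the square root of the test's F statistic, and was not taken from the fit itself. Log2 ratios of a further to a main transcript's count, each plus 0.5, were tested with limma 3.58.1. Tested were further transcripts with a total of at least 100 and at most 95% of a main transcript of at least 200. These totals are over all 9 libraries, so a transcript can enter the test through 1 group. Lists and runs carry no test. The members and lists were chosen with earlier results of these data known. Named genes were APC, CTNNB1 and AXIN2, and the 12 per direction with the largest difference in CPM at over 2-fold. To these were added the 12 per direction with the largest fold at 50 CPM or more and no overlap of APC and SW480 libraries. From each of 47 lists up to 4 per direction at 2 CPM or more were named, of which the text gives examples. Some named genes and 1 list are not reported here. CD3E and the promoter motifs were chosen after values were seen. RefSeq gene order is from GRCh38.p14, not the build of the counts.

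Intervals of ratios at 3 or fewer counts are exact at 95% and cover counting error only. On simulated data for APC against SW480 with 198 of 14068 genes changed, edgeR recovered 93.9% at 2-fold and 83.8% at 1.5-fold, with 6 unchanged genes called. For 200 of 5284 transcript ratios changed 1.5-fold limma recovered 81.5%, with 13 unchanged ratios called. The simulation gave all genes 1 common spread and changed far fewer genes than the 72.5% called in the data. Its rates may therefore not hold for the data. As alternatives the fit was repeated with DESeq2 1.42.0, with RLE size factors, unfiltered, on summed transcripts, with limma on log2 RPKM (pseudocounts of 1 and 0.1), on 6 libraries, with the replicate number as a block, against a fold of 2, and leaving out each library.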

Additional observations from a re-analysis of the deposited data

How the results depend on the processing

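Asking for a fold above 2 within the test (edgeR's glmTreat) left 882 genes higher and 1168 lower, against 5078 and 5255 without that demand; 83 of 94 counts of list members moved by more than 1.5 times, and 152 named genes lost the call while 212 kept it. Under the other alternatives, gene counts stayed within 1.5 times the main values. They were 4816 higher and 4767 lower with DESeq2, 5182 and 5155 with RLE size factors, 5451 and 5477 without a filter, 5142 and 5174 with summed transcripts, 4660 to 4676 and 5512 to 5531 with limma on log2 RPKM, and 5019 and 5022 with 6 libraries. Leaving out 1 library at a time gave 4904 to 5165 higher, 4949 to 5266 lower and 321 to 439 transcript ratios called, against 458. The ratios numbered 487 with a pseudocount of 5, 334 at no more than 80% of the main transcript and 355 with 6 libraries. With the replicate block there were 5062 genes higher, 5233 lower and 387 ratios; the numbers are only names here, since same-numbered SW480 and APC libraries had correlations of their deviations of 0.106, −0.016 and 0.031. No named gene reversed its direction under any of these alternatives. KRT18, PMVK, RRP9, PTBP2 and ATP7B, all with changes under 0.35 on the log2 scale, lost the call under several of them, as did the ratios of ATP1A1OS, GREB1, RGS5 and the transcript NM_001260490 of LSR. Apart from the demand for a fold above 2, the count of 1 list moved by more than 1.5 times: the motile cilia list had 3 members higher instead of 5 with DESeq2, with limma on RPKM and without SW480 replicate 2 or APC replicate 1. With runs of 25 genes the highest median was 3.47. Total counts set the floor of 3 counts at 0.162 to 0.174 CPM in the 6 libraries compared, and levels near it are uncertain.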
